A study of Homo sapiens with 9 samples.

Results

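The enzymes that make serine from a glycolytic intermediate and carry its carbon into the folate pool were examined as a group of 9 genes: PHGDH, PSAT1, PSPH, SHMT1, SHMT2, MTHFD1, MTHFD2, MTHFD1L and ALDH1L2. They were chosen by name, with earlier results of these data known. Of the 9, 8 had a transcript cluster (the set of array probes read as 1 gene) among the 21448 clusters measured. SHMT1, the cytosolic serine hydroxymethyltransferase, is not analysed here. Of the 8 clusters, 7 lay above the negative controls on all 9 arrays, and that of ALDH1L2 lay below them on all 9.

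RNA came from ACC-MESO-1, an established cell line of pleural mesothelioma, the cancer of the membrane around the lung. Cells had been infected to carry a short hairpin RNA, and the 3 groups of 3 Clariom S arrays were shLSD1 #1 (replicates 4 to 6), shLSD1 #2 (replicates 7 to 9) and control shRNA (replicates 1 to 3). LSD1 is a histone demethylase that removes methyl groups from histone H3 and works in repressor complexes. The transcript of LSD1 was not analysed here, so the knockdown was not checked, and the sources used here do not state the vector, the time after infection or any selection. All groups share 1 cell line and its medium with serum, and the labels do not say that replicates were separate cultures, so p-values measure only the spread between these arrays, which may be technical.

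Serine is made from 3-phosphoglycerate in a short chain of reactions, in which PHGDH oxidises the glycolytic intermediate, PSAT1 adds an amino group and PSPH removes the phosphate. SHMT2 in mitochondria and SHMT1 in the cytosol then turn serine into glycine and pass 1 carbon to tetrahydrofolate. In mitochondria MTHFD2 oxidises that carbon, MTHFD1L releases it as formate and ALDH1L2 can burn it to CO2, while in the cytosol MTHFD1 takes formate back up for purine, thymidylate and methionine synthesis. PHGDH, PSAT1 and MTHFD2 are known targets of ATF4, the transcription factor of the amino acid and stress response, which binds DNA together with C/EBP proteins.

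The median log2 signal of an array over all clusters was 6.39 to 6.43, and 42.0% to 46.2% of clusters exceeded the negative controls, which here means the 95th percentile of 612 negative control probe sets on the same array (6.93 to 7.54). Foreign transcripts added as hybridization spike-ins had a mean signal of 10.8 to 10.9 on shLSD1 #2 replicate 8 and all shLSD1 #1 arrays, against 11.2 to 11.4 on shLSD1 #2 replicates 7 and 9 and the 3 control arrays. The labelling spike-ins divided the arrays in the same way, at 7.34 to 7.55 and 7.68 to 7.96. Changes were therefore also fitted with the spike-in class (high or low signal) as a blocking term, called the block below, and for shLSD1 #2 over the 5 arrays of high class alone. The block estimates the class effect within shLSD1 #2, the group that has both classes, so it is no separate check of shLSD1 #1, and shLSD1 #1 cannot be compared with control within a class. For shLSD1 #2 the block, the high-class arrays and the fit without replicate 8 give the same estimate of the change. They are therefore not separate checks. Of 10 mesothelial markers, 5 exceeded the negative controls on all arrays of shLSD1 #1, 6 of shLSD1 #2 and 4 of control shRNA. Mesothelin (MSLN), vimentin (VIM), KRT8 and KRT18 did so on all 9 arrays, and calretinin (CALB2) and KRT5 on none. Of 8 markers of blood, endothelial, epithelial and liver cells, 7 stayed below on all 9 arrays, the exception being CD68, a lysosomal protein best known in macrophages.

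The enzymes at the entry of the serine pathway and in the middle of the mitochondrial folate arm were lower with both hairpins. PHGDH fell by 2.03 and 1.85, PSAT1 by 1.19 and 1.14, MTHFD1L by 0.97 and 1.11, and MTHFD2 by 0.56 and 0.49 on the log2 scale with shLSD1 #1 and shLSD1 #2 (limma, adjusted over all clusters, threshold 0.05). With shLSD1 #1, 5 of the 8 enzymes were called lower (PHGDH, PSAT1, PSPH, MTHFD2 and MTHFD1L), against a background of 7.94% of all clusters lower and 15.8% changed in either direction. With shLSD1 #2 it was again 5 (PHGDH, PSAT1, MTHFD2, MTHFD1L and ALDH1L2), against 6.63% lower and 13.2% changed, ALDH1L2 being below the negative controls throughout. With the block 2 were called lower with shLSD1 #1 (PHGDH and PSAT1) and 4 with shLSD1 #2 (these, MTHFD1L and ALDH1L2). The block called 399 of 21448 clusters in either direction with shLSD1 #1 and 1940 with shLSD1 #2. The 4 enzymes called lower with both hairpins stand against 5.32% of clusters, and 0 were called higher with either hairpin, where 7.85% and 6.56% of clusters were, and 5.11% with both. All 3 hairpin arrays lay below all 3 control arrays for 7 of the 8 with shLSD1 #1 and 6 with shLSD1 #2, against 16.8% and 15.3% of clusters. The median change of the 8 was -0.54 with shLSD1 #1 and -0.63 with shLSD1 #2, beside 0.03 and 0.02 over all clusters. The shLSD1 #2 median lies midway between the changes of MTHFD2 and ALDH1L2, the latter below the negative controls throughout. ALDH1L2 is also among the 7 and the 6 whose hairpin arrays all lay below control. Both comparisons use the same 3 control arrays and so are not independent of each other.

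**Figure D1:**
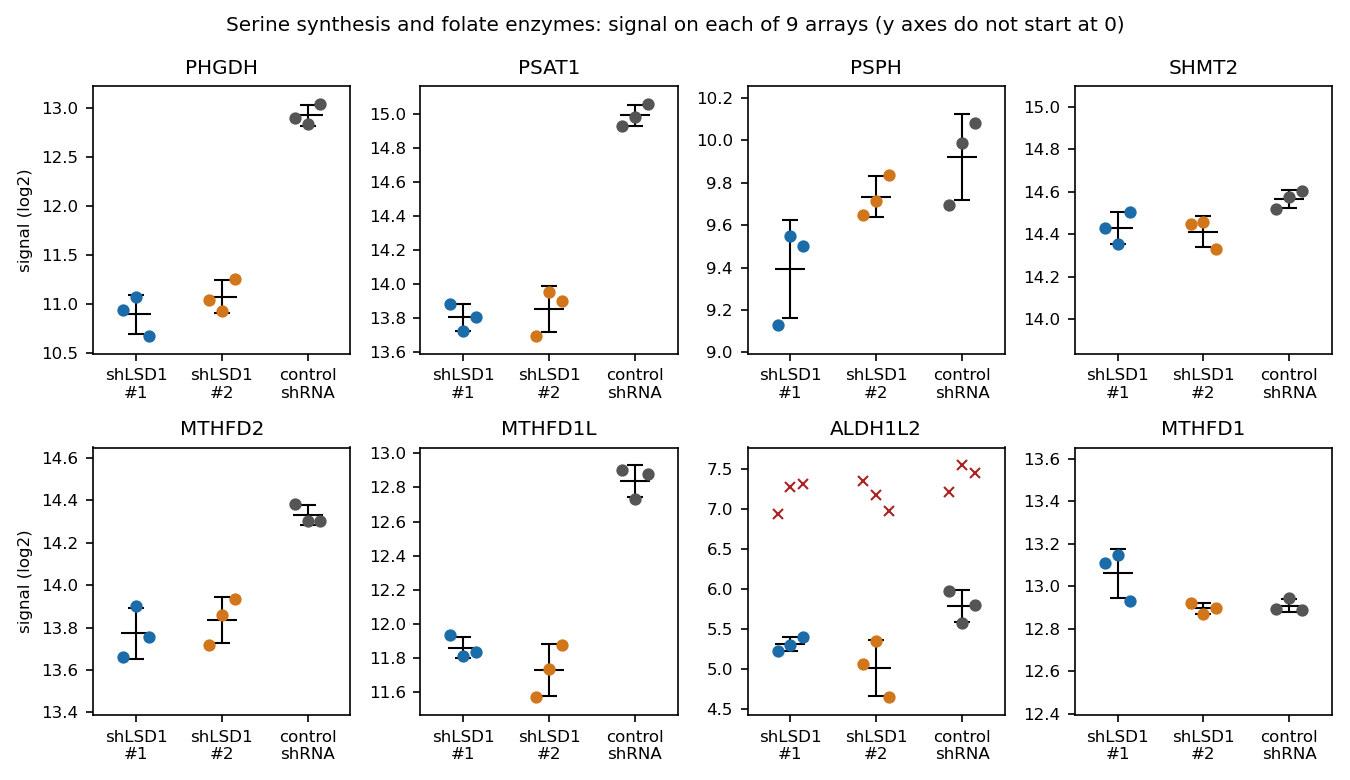
Signal (log2, y axis) of each of the 8 enzymes on the 9 arrays, with the groups shLSD1 #1, shLSD1 #2 and control shRNA along the x axis; points are arrays, the long line is the mean and the bars are 1 SD (n = 3). The 6 hairpin arrays lie below the 3 control arrays for PHGDH, PSAT1, MTHFD2, MTHFD1L, SHMT2 and ALDH1L2, and the crosses in the ALDH1L2 panel are the negative control percentile of each array, all above the ALDH1L2 signal.

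Promoter sequence is shown for PHGDH, PSAT1 and MTHFD2, and a short site for MTHFD1L, since these 4 were lower with both hairpins, and since ATF4 is a known regulator of several of them and its own transcript was lower too (described further on). The windows searched are the 250 bases before a transcript start in RefSeq (GRCh38.p14), which had entries for 6 of the 9 enzymes, 9 windows in all. Capitals mark CCAAT, the box bound by NF-Y, and TGATGNAA, the element bound by ATF4 with C/EBP proteins, each searched on both strands without allowing for overlap between the motifs.
PHGDH promoter, chr1:119711684-119711933, plus strand: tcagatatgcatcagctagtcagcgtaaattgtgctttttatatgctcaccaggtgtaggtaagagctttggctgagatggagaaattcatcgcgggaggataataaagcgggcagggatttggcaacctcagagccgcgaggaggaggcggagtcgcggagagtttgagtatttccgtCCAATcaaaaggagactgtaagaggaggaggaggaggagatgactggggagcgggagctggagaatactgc
PSAT1 promoter, chr9:78296875-78297124, plus strand: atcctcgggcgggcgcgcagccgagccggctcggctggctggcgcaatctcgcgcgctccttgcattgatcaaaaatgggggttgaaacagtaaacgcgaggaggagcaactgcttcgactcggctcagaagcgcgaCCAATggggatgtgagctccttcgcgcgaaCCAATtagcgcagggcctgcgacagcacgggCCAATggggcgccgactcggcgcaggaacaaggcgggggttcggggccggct
MTHFD2 promoter, chr2:74198365-74198614, plus strand: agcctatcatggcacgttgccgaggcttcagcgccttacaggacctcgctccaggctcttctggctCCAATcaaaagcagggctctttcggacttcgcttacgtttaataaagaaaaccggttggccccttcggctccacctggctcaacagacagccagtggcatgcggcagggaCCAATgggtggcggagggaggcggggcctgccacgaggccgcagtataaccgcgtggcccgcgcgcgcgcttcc

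TGATGNAA occurred in 2 of the 9 windows, against 3.14% of 35116 windows of this length from 27305 genes. Both belong to MTHFD1L, which has 4 windows, and hold the same site, at -129 and -90 counted back from 2 of its transcript starts. That site lies inside the gene as RefSeq spans it, since MTHFD1L also has a start further upstream. Among 18 other ATF4 pathway genes with a window, 3 held the element, in 3 of their 29 windows. They were ASNS at -68, CHAC1 at -209 on the opposite strand, and CEBPG at -42. Each position is from a transcript start, that of CEBPG inside its gene. These sites are printed in 20 bases each, with the element in capitals and CHAC1 read from the opposite strand to its gene.
MTHFD1L element, chr6:150866351-150866370, plus strand: cggctcTGATGCAAtcgcgc
ASNS element, chr7:97872463-97872482, minus strand: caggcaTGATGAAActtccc
CHAC1 element, chr15:40953256-40953275, minus strand: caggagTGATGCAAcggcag
CEBPG element, chr19:33374065-33374084, plus strand: ggcgtcTGATGCAAcctgcc

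The letters TGATG followed by AA after 1 free base were not in the windows of PHGDH, PSAT1 or MTHFD2, which says only that this exact spelling is not in these 250 bases. CCAAT occurred in 8 of the 9 windows, against 32% of all windows, and stood 3 times in that of PSAT1. All 6 enzymes with a window had it, among them MTHFD1, which did not pass the test with either hairpin. The GC box GGGCGG occurred in 5 of the 9, against 42.6% of all windows. The 9 windows are not independent, since 3 of those of MTHFD1L overlap. CCAAT was searched after the changes of these genes were known, and a match is a description of letters, not of binding.

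PHGDH, the first enzyme of the chain, which commits 3-phosphoglycerate to serine, had the largest change of the 8. Its log2 signal was 10.93, 11.07 and 10.68 in shLSD1 #1 arrays, 11.04, 10.93 and 11.26 in shLSD1 #2 arrays and 12.89, 12.83 and 13.04 in control arrays. All 6 hairpin arrays lay below all 3 control arrays, as was true of 11.3% of all clusters. PHGDH was 4.08-fold lower with shLSD1 #1 (log2 change -2.03, SE 0.14, adjusted p = 2.43e-05). With shLSD1 #2 it was 3.60-fold lower (log2 change -1.85, SE 0.14, adjusted p = 3.76e-05). The gap between the nearest hairpin and control arrays was 1.76 with shLSD1 #1 and 1.57 with shLSD1 #2, well beyond the SD within groups of 0.11 to 0.20. With the spike-in block the changes were -1.81 (adjusted p = 0.0130) and -1.77 (adjusted p = 0.000351). The high-class arrays alone gave the same shLSD1 #2 estimate of -1.77 (adjusted p = 0.00274), so it is not a separate check.

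PSAT1, the aminotransferase that follows PHGDH, had log2 values of 13.88, 13.72 and 13.80 in shLSD1 #1 arrays, 13.70, 13.95 and 13.90 in shLSD1 #2 arrays and 14.93, 14.99 and 15.06 in control arrays. The groups again did not overlap, and the 6 hairpin arrays spread over a narrow range well below control. PSAT1 fell by 1.19 (SE 0.11, adjusted p = 0.000147) with shLSD1 #1, a 2.28-fold lower signal, and by 1.14 (SE 0.11, adjusted p = 0.000187) with shLSD1 #2, a 2.21-fold lower signal. It stayed below the threshold with the spike-in block, at -1.35 (adjusted p = 0.0178) and -1.19 (adjusted p = 0.000878). It did so over the high-class arrays too (adjusted p = 0.00701), at the same shLSD1 #2 estimate as with the block. The RefSeq table names 4 pseudogenes of PSAT1, 7 of MTHFD2, 1 of PSPH and 1 of MTHFD1, and the probes may also read such copies.

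PSPH, the phosphatase that completes serine, changed less and depended on single arrays. Its log2 signal was 9.13, 9.55 and 9.50 in shLSD1 #1 arrays, 9.65, 9.71 and 9.84 in shLSD1 #2 arrays and 9.69, 9.99 and 10.08 in control arrays. The lowest control array lay within the range of the shLSD1 #2 arrays and only 0.14 above the highest shLSD1 #1 array. PSPH fell by 0.53 with shLSD1 #1 (95% interval -0.87 to -0.18, adjusted p = 0.0449), and the shLSD1 #2 change was -0.19 (95% interval -0.53 to 0.16, adjusted p = 0.508). The shLSD1 #1 call ended with the block (adjusted p = 0.486), with only the groups compared (adjusted p = 0.0809) and without any 1 of control replicates 2 or 3, shLSD1 #1 replicates 4 or 6, or any shLSD1 #2 array (adjusted p 0.0556 to 0.139). The 2 hairpins did not pass the test against each other for PSPH, with a difference of -0.34 (95% interval -0.68 to 0.0035, adjusted p = 0.636).

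**Figure D2:**
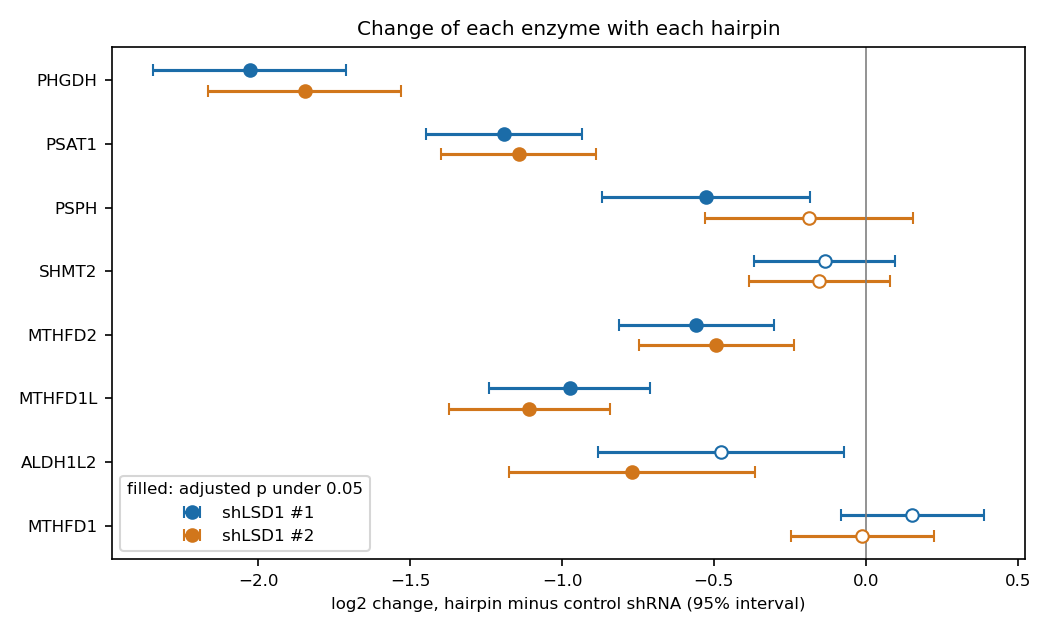
Log2 change of each enzyme (rows) with shLSD1 #1 (blue) and shLSD1 #2 (orange) relative to control shRNA on the x axis; points are fitted changes, bars their 95% intervals, and filled points passed the adjusted threshold of 0.05. PHGDH lies furthest left at -2.03 and -1.85, MTHFD1 at 0.15 and -0.01 lies around 0, and the ALDH1L2 points come from signal below the negative controls.

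In the mitochondrial arm, the first enzyme and the 2 that follow differed in whether they passed the test. SHMT2, which takes the carbon from serine, had log2 values of 14.43, 14.35 and 14.51 in shLSD1 #1 arrays, 14.45, 14.46 and 14.33 in shLSD1 #2 arrays and 14.52, 14.57 and 14.60 in control arrays. All 6 hairpin arrays were below control, but the gap was as small as 0.01. The changes of -0.14 (95% interval -0.37 to 0.10, adjusted p = 0.435) and -0.15 (95% interval -0.39 to 0.08, adjusted p = 0.411) did not pass the test, and the intervals leave room for a fall of up to 0.37 and 0.39.

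MTHFD2, the dehydrogenase and cyclohydrolase that oxidises the folate-bound carbon and is typical of growing and tumour cells, had log2 values of 13.66, 13.90 and 13.75 in shLSD1 #1 arrays, 13.72, 13.86 and 13.93 in shLSD1 #2 arrays and 14.38, 14.30 and 14.30 in control arrays. Every hairpin array was below every control array, by at least 0.37. MTHFD2 was 1.47-fold lower with shLSD1 #1 (log2 change -0.56, SE 0.11, adjusted p = 0.00920) and 1.41-fold lower with shLSD1 #2 (log2 change -0.49, SE 0.11, adjusted p = 0.0191). Both calls ended with the spike-in block, at -0.59 (adjusted p = 0.236) and -0.50 (adjusted p = 0.0511). The shLSD1 #2 call also ended over the high-class arrays (adjusted p = 0.0812) and without replicate 8, at the same change as with the block. These are 1 estimate of the change and not separate checks. Leaving out any 1 control array, or shLSD1 #2 replicate 7, ended the shLSD1 #2 call as well (adjusted p 0.0513 to 0.0736).

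MTHFD1L, the synthetase that releases formate from mitochondria, was lower with both hairpins. Its log2 signal was 11.93, 11.81 and 11.84 in shLSD1 #1 arrays, 11.57, 11.74 and 11.88 in shLSD1 #2 arrays and 12.90, 12.73 and 12.88 in control arrays. The nearest hairpin and control arrays were 0.80 apart with shLSD1 #1 and 0.85 apart with shLSD1 #2. MTHFD1L was 1.97-fold lower with shLSD1 #1 (log2 change -0.97, SE 0.12, adjusted p = 0.000583) and 2.16-fold lower with shLSD1 #2 (log2 change -1.11, SE 0.12, adjusted p = 0.000290). With the block the shLSD1 #1 call ended at -0.99 (adjusted p = 0.0715), while shLSD1 #2 stayed called at -1.11 (adjusted p = 0.00200). The shLSD1 #2 call also stayed over the high-class arrays (adjusted p = 0.0129), which give the same estimate.

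ALDH1L2, which can oxidise formyl-folate to CO2, was not above the negative controls on any array, so no fold is given for it. Its values were 5.22, 5.30 and 5.39 in shLSD1 #1 arrays, 5.05, 5.34 and 4.64 in shLSD1 #2 arrays and 5.97, 5.57 and 5.80 in control arrays, all under the lowest negative control percentile of 6.93. The fit gave -0.48 (adjusted p = 0.110) with shLSD1 #1 and -0.77 (adjusted p = 0.0207) with shLSD1 #2. The shLSD1 #2 value lost its call with only the groups compared (adjusted p = 0.0505) and without control replicate 1 or 3 or shLSD1 #2 replicate 7 or 9 (adjusted p 0.0506 to 0.0773).

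MTHFD1, the cytosolic enzyme that joins formate to tetrahydrofolate and runs the steps onward from there, did not pass the test with either hairpin. Its log2 signal was 13.11, 13.15 and 12.93 in shLSD1 #1 arrays, 12.92, 12.87 and 12.90 in shLSD1 #2 arrays and 12.89, 12.94 and 12.89 in control arrays. The groups overlapped in both comparisons. The changes were 0.15 with shLSD1 #1 (95% interval -0.08 to 0.39, adjusted p = 0.381) and -0.01 with shLSD1 #2 (95% interval -0.25 to 0.22, adjusted p = 0.962). A difference between the change of MTHFD1 and that of its mitochondrial relatives was not tested, since different probes carry each.

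Between the hairpins, 0 of the 8 enzymes passed the limma test (adjusted p 0.636 to 0.977), and 0 had an unadjusted p under 0.05. Over all clusters 0 (0%) passed, 1687 had an unadjusted p under 0.05, and 42 passed with a trended robust prior. The fitted difference between shLSD1 #1 and shLSD1 #2 was -0.18 for PHGDH (95% interval -0.50 to 0.14) and -0.05 for PSAT1 (95% interval -0.30 to 0.21). It was -0.06 for MTHFD2 (95% interval -0.32 to 0.19) and 0.13 for MTHFD1L (95% interval -0.13 to 0.40). With 3 arrays a group, differences between the hairpins of any size inside these intervals remain possible.

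**Figure D3:**
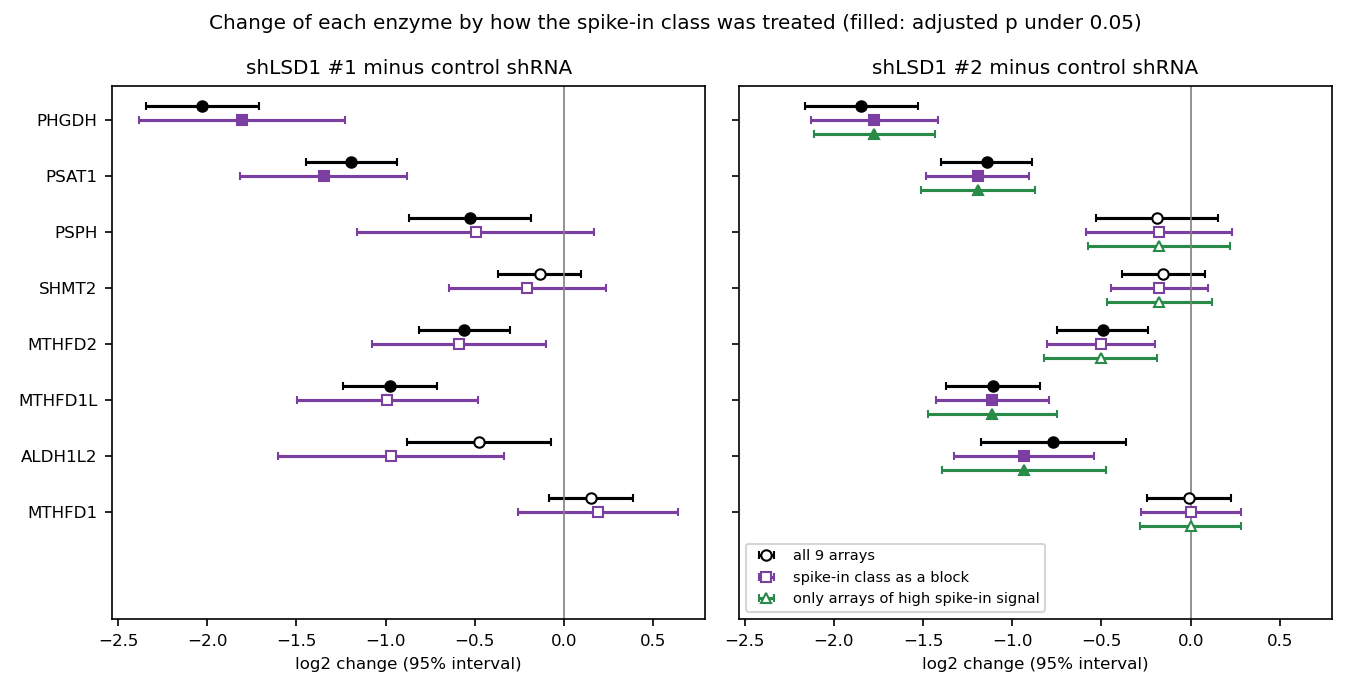
Log2 change of each enzyme (rows) for shLSD1 #1 minus control shRNA (left) and shLSD1 #2 minus control shRNA (right), with 95% intervals, from all 9 arrays (circles), with the spike-in block (squares) and from the 5 arrays of high spike-in signal (triangles, right panel only); filled symbols passed the adjusted threshold of 0.05. PHGDH and PSAT1 stay filled in every fit shown, MTHFD2 is filled with all 9 arrays alone, and the intervals widen with the block. Squares and triangles in the right panel share the same estimate of each change.

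Few genes of the neighbouring steps passed the test. Over all clusters, 7.94% were lower and 7.85% higher with shLSD1 #1, and 6.63% and 6.56% with shLSD1 #2. Of the 7 genes of the mitochondrial folate arm, the 3 that are none of the enzymes above (SLC25A32, MTHFD2L and MTFMT) did not pass with either hairpin, though 1 gene of the arm was higher with shLSD1 #1 under a trended robust prior. The cytosolic arm had 5 of 7 genes with a cluster, of which 1 was lower with shLSD1 #1 and 0 with shLSD1 #2. That gene was MTHFS, which recycles 5-formyl-folate, singled out after its values were seen, at -0.59 (adjusted p = 0.0397) and 0.04 (adjusted p = 0.908), and its difference between hairpins did not pass (adjusted p = 0.479). With the block the MTHFS change with shLSD1 #1 was -0.71 and no longer called (adjusted p = 0.337). Glycine cleavage (3 genes with a cluster) and thymidylate synthesis (3 genes) had 0 calls by limma with either hairpin. With a trended robust prior each had 1 gene higher with shLSD1 #1, and glycine cleavage had 2 higher with shLSD1 #2. Folate uptake and retention (6 genes) had 0 calls with shLSD1 #1 and 1 rise with shLSD1 #2, the hydrolase GGH at 0.39 (adjusted p = 0.0403), also singled out after its values were seen. The GGH call ended with the block (0.43, adjusted p = 0.0643) and over the high-class arrays (adjusted p = 0.0988).

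Genes that consume the folate carbon or serine went both ways. Over all clusters, 5.32% were lower and 5.11% higher with both hairpins. In purine synthesis, 2 of 11 genes rose with both hairpins. PPAT, which commits the pathway, had log2 means of 12.45 ± 0.13 in shLSD1 #1, 12.50 ± 0.17 in shLSD1 #2 and 11.48 ± 0.25 in control arrays (SD, n = 3), a rise of 0.98 (adjusted p = 0.00269) and 1.02 (adjusted p = 0.00235). ATIC, which uses formyl-folate in the last steps to inosine monophosphate, rose by 0.52 (adjusted p = 0.0188) and 0.44 (adjusted p = 0.0435). A further gene, GART, which uses formyl-folate earlier and was singled out after its values were seen, was lower with shLSD1 #1 alone at -0.47 (adjusted p = 0.0235) and at -0.05 with shLSD1 #2 (adjusted p = 0.829), and the hairpins did not pass the test against each other (adjusted p = 0.480). In the methionine cycle 1 of 11 genes was lower with each hairpin, AHCYL1, a relative of adenosylhomocysteinase, at -0.54 (adjusted p = 0.00523) and -0.60 (adjusted p = 0.00338).

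Of 12 genes of serine transport and use, 2 were lower and 2 higher with each hairpin. The share of all clusters was 5.32% lower and 5.11% higher with both. CBS, which joins serine to homocysteine for cysteine synthesis, had log2 means of 8.78 ± 0.25 in shLSD1 #1, 8.89 ± 0.05 in shLSD1 #2 and 10.21 ± 0.03 in control arrays (SD, n = 3). It fell by 1.43 (adjusted p = 0.000137) and 1.32 (adjusted p = 0.000230), and its other cluster fell by 1.56 with each hairpin. SLC1A5, a carrier of neutral amino acids such as glutamine, fell by 1.00 (adjusted p = 0.000455) and 0.78 (adjusted p = 0.00206). Serine racemase (SRR) rose by 0.78 (adjusted p = 0.00176) and 0.77 (adjusted p = 0.00211), and SPTLC2, a subunit of the enzyme that draws serine into sphingolipids, rose by 0.47 (adjusted p = 0.00988) and 0.57 (adjusted p = 0.00408). In lower glycolysis, 1 of 8 genes was lower with each hairpin, PGK1, which makes the 3-phosphoglycerate that PHGDH uses, at -0.63 (adjusted p = 0.00552) and -0.62 (adjusted p = 0.00715). With the block, whose standard errors are larger, the shLSD1 #1 calls of PPAT (0.87), ATIC (0.46), AHCYL1 (-0.52), SLC1A5 (-0.86), SRR (0.70), SPTLC2 (0.47), GART (-0.51) and PGK1 (-0.47) ended, with the blocked log2 change given for each. The shLSD1 #2 call of ATIC ended too (0.42, adjusted p = 0.118), and that of PGK1 ended over the high-class arrays (-0.56, adjusted p = 0.0503), while CBS stayed called with both hairpins.

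ATF4 and genes of its pathway were lower in the same arrays as PHGDH and PSAT1. The log2 signal of ATF4 was 13.30, 13.36 and 13.19 in shLSD1 #1 arrays, 13.25, 13.16 and 13.26 in shLSD1 #2 arrays and 14.12, 14.18 and 14.10 in control arrays. Hairpin and control arrays did not overlap, and ATF4 fell by 0.85 (SE 0.10, adjusted p = 0.000605) and 0.91 (SE 0.10, adjusted p = 0.000426). Of 20 genes in the list with a cluster, 14 were lower with shLSD1 #1 and 14 with shLSD1 #2, the same genes, beside backgrounds of 7.94% and 6.63%. The 14 include ATF4 itself and the kinase EIF2AK2 (-0.62 and -0.71), so they are not all targets of ATF4. The kinases EIF2AK1 and EIF2AK3, also in the list, were not called with either hairpin. That list was chosen with earlier results of these data known, so its excess over the backgrounds is no independent support. The 1 gene that was higher was EIF2AK4, the kinase that senses uncharged tRNA, at 0.53 with shLSD1 #1 (adjusted p = 0.0121) and 0.11 with shLSD1 #2 (adjusted p = 0.615), again singled out after its values were seen. With the spike-in block 3 were lower with shLSD1 #1 and 13 with shLSD1 #2, and 12 over the high-class arrays, which share the blocked shLSD1 #2 estimates. Of all 21448 clusters, these fits called 399, 1940 and 1450 in either direction, against 3385 with shLSD1 #1 and 2827 with shLSD1 #2 without the block. The ATF4 call with shLSD1 #1 ended with the block at -0.75 (adjusted p = 0.105). The median change of the list with shLSD1 #1 was -0.66 with the block and -0.75 without it. EIF2AK4 with shLSD1 #1 was at 0.49 with the block and no longer called (adjusted p = 0.330).

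The 3 genes that hold the TGATGNAA element as MTHFD1L does were among those 14, which are most of the 20 genes of the list. Lower genes whose windows lack the element include ATF4, DDIT4 and PCK2, beside PHGDH, PSAT1 and MTHFD2. A link between the element and the changes was not tested. CHAC1, which degrades glutathione and is a strong ATF4 target, had log2 means of 10.66 ± 0.19 in shLSD1 #1, 10.00 ± 0.19 in shLSD1 #2 and 12.73 ± 0.16 in control arrays (SD, n = 3). It fell by 2.07 (adjusted p = 3.01e-05) and 2.73 (adjusted p = 4.61e-06). ASNS, asparagine synthetase, fell by 1.43 (adjusted p = 8.12e-05) and 1.31 (adjusted p = 0.000135), and CEBPG, a C/EBP partner of ATF4 named here for its element, fell by 0.90 (adjusted p = 0.00257) and 0.84 (adjusted p = 0.00418).

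DDIT4, a stress-induced inhibitor of mTORC1, had log2 means of 8.52 ± 0.40 in shLSD1 #1, 8.43 ± 0.43 in shLSD1 #2 and 10.84 ± 0.11 in control arrays (SD, n = 3). Its log2 change was -2.33 with shLSD1 #1 (adjusted p = 0.000247) and -2.42 with shLSD1 #2 (adjusted p = 0.000199). PCK2, the mitochondrial enzyme that makes phosphoenolpyruvate, was above the negative controls on the 3 control arrays alone. It was at least 1.86-fold lower with shLSD1 #1 (adjusted p = 0.000188) and at least 1.87-fold lower with shLSD1 #2 (adjusted p = 0.000195), with the hairpin arrays set to their mean negative control percentile. These adjusted p-values are from the limma fit to the measured values, and the bounds themselves were not tested. With the block the shLSD1 #1 call of PCK2 ended (adjusted p = 0.0579), as did that of CEBPG (adjusted p = 0.220), and those of CHAC1, ASNS and DDIT4 held with both hairpins.

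**Figure D4:**
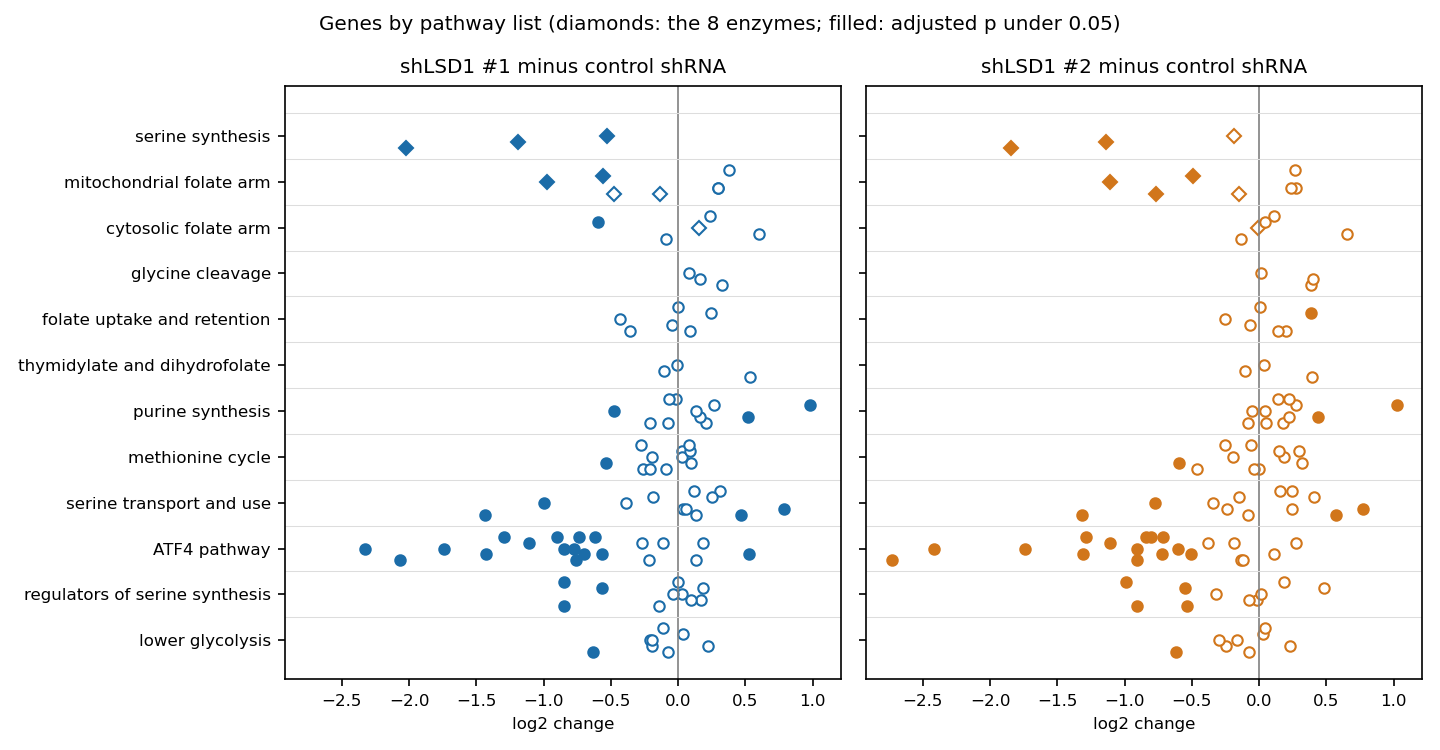
Log2 change of each gene (points, x axis) in 12 lists around serine and folate metabolism (rows), for shLSD1 #1 minus control shRNA (left) and shLSD1 #2 minus control shRNA (right); diamonds are the 8 enzymes, circles the other genes, and filled points passed the adjusted threshold of 0.05. The ATF4 pathway row holds 14 filled points left of 0 in each panel, whereas most other rows straddle 0.

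Over all clusters, 7.94% were lower with shLSD1 #1 and 6.63% with shLSD1 #2. Of 10 genes with a cluster that are reported as regulators of serine synthesis genes, 3 were lower with shLSD1 #1 and 4 with shLSD1 #2. Beside ATF4 these were SREBF1, a factor of lipid and sterol synthesis, which fell by 0.85 (adjusted p = 0.0156) and 0.99 (adjusted p = 0.00832), and NFE2L2, the factor of the antioxidant response, which fell by 0.56 (adjusted p = 0.0224) and 0.55 (adjusted p = 0.0278). With the block the SREBF1 change with shLSD1 #1 was -0.43 and no longer called, and the NFE2L2 calls ended with both hairpins. MTOR, singled out after its values were seen, was lower with shLSD1 #2 alone at -0.54 (adjusted p = 0.0437) and at -0.14 with shLSD1 #1 (adjusted p = 0.581), and the hairpins did not pass the test against each other (adjusted p = 0.593). The MTOR call ended with the block (-0.60, adjusted p = 0.0681) and over the high-class arrays (adjusted p = 0.0860). MYC, a factor of growth that also drives serine pathway genes, had log2 means of 12.79 ± 0.22 in shLSD1 #1, 12.62 ± 0.14 in shLSD1 #2 and 12.70 ± 0.18 in control arrays (SD, n = 3). Its changes of 0.09 (95% interval -0.25 to 0.43, adjusted p = 0.737) and -0.08 (95% interval -0.42 to 0.26, adjusted p = 0.810) did not pass the test.

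Of the 10 mesothelial markers, 1 was lower and 2 were higher with each hairpin. The share of all clusters was 5.32% lower and 5.11% higher with both. MSLN fell by 0.85 (adjusted p = 0.00729) and 0.95 (adjusted p = 0.00482), and with the block its shLSD1 #1 change was -0.33 and not called. WT1 was at least 1.35-fold higher with shLSD1 #1 (adjusted p = 0.0156) and at least 1.27-fold higher with shLSD1 #2 (adjusted p = 0.0304), and UPK3B was at least 1.14-fold (adjusted p = 0.00325) and 1.15-fold (adjusted p = 0.00341) higher, since both lay below the negative controls on all control arrays. The adjusted p-values of WT1 and UPK3B are from the limma fit to the measured values, not from a test of these bounds. With the block the WT1 calls ended (adjusted p = 0.561 with shLSD1 #1 and 0.107 with shLSD1 #2), as did the UPK3B call with shLSD1 #1 (adjusted p = 0.167). CD68 fell by 1.11 (adjusted p = 0.000649) and 1.35 (adjusted p = 0.000218). The mean log2 signal over the 10 mesothelial markers ran over 9.94 to 10.11 in shLSD1 #1, 9.95 to 10.11 in shLSD1 #2 and 9.91 to 10.13 in control arrays, and that over the 8 markers of other cell types over 5.31 to 5.44, 5.15 to 5.41 and 5.41 to 5.58 in shLSD1 #1, shLSD1 #2 and control arrays. The part of these markers in the changes of the enzymes was not tested, and fewer cells of a kind cannot be told apart from less RNA per cell.

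For the 4 enzymes lower with both hairpins, the genes of most similar profile were found among 17686 others. Likeness was the root mean square difference on the log2 scale over the 9 arrays, each profile centred on its own mean, so smaller is nearer. Nearest to PHGDH were SPOCK1 at 0.112, CD164 at 0.121 and C1RL at 0.144. SPOCK1, a secreted proteoglycan, had changes of -1.86 and -1.82 with shLSD1 #1 and shLSD1 #2, close in size to those of PHGDH. Nearest to PSAT1 were the chemokine CCL2 at 0.0744, the glucose carrier SLC2A3 at 0.0850 and UBE2L6 at 0.0908, which works in conjugation of the interferon-induced modifier ISG15.

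Nearest to MTHFD2 were the kinesin KIF1C at 0.0553, annexin ANXA5 at 0.0583 and the zinc carrier SLC39A14 at 0.0588. Nearest to MTHFD1L were RABL3 at 0.0727, TPBG at 0.0859 and B2M, the light chain of class I molecules, at 0.0889. RABL3 exceeded the negative controls on only 4 of the 9 arrays and on 0 shLSD1 #2 arrays. Its step is therefore only bounded there, at least 1.85-fold lower with shLSD1 #2. These 12 genes share the same 9 arrays with the enzymes and, since each profile is mostly the step between hairpin and control arrays, a small distance says that the steps are of like size. None of the 12 is another of the 8 enzymes or in the lists described above.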

How the data were processed

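Total RNA from ACC-MESO-1 cells (100 ng per array, per the labels' protocols) was labelled and hybridized to 9 Clariom S arrays, 3 per group. The deposited values are log2 signals per transcript cluster, which the authors made by RMA, a background correction, normalization and summary of probes, with Affymetrix Expression Console 1.4, per the submitters' processing notes. Base 2 is assumed for the logarithm, as RMA uses, and the sources used here state neither library files nor a genome build. Array medians nearly coincide, so a value is relative to the rest of its array.

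Of 24351 probe sets, 2903 controls were set aside and all 21448 clusters were tested. The platform annotation gave 17709 clusters 1 symbol and 3739 none or several. For 20 genes with several clusters, the one of highest mean stood for the gene. limma 3.58.1 (lmFit and eBayes without trend, R 4.3.3) fitted the 3 groups together, with two-sided p-values adjusted by Benjamini and Hochberg over all clusters and a threshold of 0.05. The fit was checked on simulated data. Above background means above the 95th percentile of 612 negative control probe sets on that array. Where only 1 group of a comparison lay below on all its arrays, the mean percentile of its arrays stood for it and the fold is a lower bound. An adjusted p beside such a bound is that of the fit to the measured values. Precision is limited by the number of arrays.

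The enzymes and the 14 gene lists were chosen with earlier results of these data known. Named genes were the 9 enzymes, up to 4 further genes per list that passed with both hairpins in 1 direction, ATF4 and MYC, the 3 nearest profiles, and genes said in the text to be singled out. Promoters came from RefSeq (GRCh38.p14), used only for names and these sequences. Protein comparisons between relatives were not run. Alternatives tried were array medians, cyclic loess, a filter on dim clusters, a trended robust prior, only the groups compared, a block for spike-in class, arrays of 1 class alone, and omission of each array. Plots were drawn with matplotlib 3.10.9.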

Additional observations from a re-analysis of the deposited data

How the results depend on the processing

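No paired analysis was possible because the labels number the arrays 1 to 9 across the groups, so no replicate number is shared. With the spike-in block, the clusters called for shLSD1 #1 numbered 399, against 3385 without it, and the enzymes called lower with shLSD1 #1 numbered 2 (PHGDH and PSAT1), against 5. The class effect in that fit rests on 1 low-class array, shLSD1 #2 replicate 8, so the fall in calls does not measure an effect of class. Over the arrays of high spike-in signal alone, 1450 clusters were called for shLSD1 #2, against 2827. With a trended robust prior 42 clusters were called between the hairpins, against 0. Omitting 1 array at a time left 2375 to 3275 clusters called for shLSD1 #1, 1918 to 2710 for shLSD1 #2 and 0 between the hairpins. The enzymes called lower then numbered 4 to 5 with shLSD1 #1 and 3 to 5 with shLSD1 #2, and 0 were called higher. The cause of these differences was not tested, beyond the smaller number of arrays in some fits.

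Of the enzymes' changes with each hairpin against control, 97 of the values under other settings and 128 without 1 array kept their side of the threshold, 7 and 16 lost a call, and 0 turned direction among called values. The lost calls were those of PSPH, MTHFD2, MTHFD1L and ALDH1L2 given in the report. Kept values include changes never called, such as those of SHMT2 and MTHFD1. Leaving out an array of the other hairpin cannot move a change, only its SE. Subtracting array medians alters little, since they nearly coincide. For shLSD1 #2 the block and the high-class arrays share the same estimates. These counts, and those for other genes, are therefore not counts of separate checks. PHGDH and PSAT1 were called with both hairpins under every setting run, PHGDH between -2.12 and -1.77 and PSAT1 between -1.35 and -1.07. Among the other genes tested this way, 33 values lost a call under another setting and 34 without 1 array, against 383 and 542 that did not. ALDH1L2 is limited by signal below the negative controls. Protein identity between relatives was not run.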
